A study of Mus musculus with 16 samples.

Results

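Gene-end regions were the differentially methylated regions whose annotation in the authors' deposited table places them in the 3' UTR of a transcript or within 3 kb downstream of a gene, on the autosomes. There were 2793 of them among 86510 regions in all, or 3.40% of the 82057 autosomal regions. Of these, 1820 were annotated as 3' UTR and 973 as downstream, the latter split into 371 under 1 kb, 297 at 1 to 2 kb and 305 at 2 to 3 kb from the gene. The table compares whole-genome bisulfite sequencing of kidney from wild type mice and from mice lacking Gulo (Gulo-/-), with 2 samples of each genotype, on a background that the labels give as C57BL/6. The enzyme made from Gulo completes the synthesis of ascorbate (vitamin C), so Gulo-/- mice depend on vitamin C in the diet. The labels give neither age, diet nor treatment. Chopped and mixed kidney tissue was apportioned to the different assays, per the labels, which do not say how many animals a sample holds. Every methylation value below is a fraction between 0 and 1, averaged by the authors over the CpGs of a region. The table has 1 mean per side of the comparison, called side 1 and side 2 here. It names no genotype for a side, so directions are given by side, and it holds neither coverage nor values per sample, so no replicate error or test over samples can be attached to a methylation difference.

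CpG methylation in mammals is copied at each cell division by DNMT1, and the TET enzymes remove it by oxidizing 5-methylcytosine in a reaction that ascorbate promotes. Promoters with many CpGs are usually unmethylated, while gene bodies and the sequence past their ends are usually methylated. The 3' UTR carries the binding sites of microRNAs and of proteins that set the stability of an mRNA, and the stretch just past the gene is where transcription terminates. A CpG-dense stretch at a gene end can also be the promoter of a further transcript, such as an antisense or a long noncoding RNA.

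The few sequences that could be read under these regions ranged from runs crowded with CpGs to stretches that hold few. No genome sequence was used here, so letters could be read only where a region overlapped the promoter window of a RefSeq transcript (250 bases before to 50 after its start, GRCm38.p6, the same build as mm10) by at least 30 bases. That was so for 21 regions of the 2721 on chromosomes with such a table. These 21 were richer in CpGs, with a median of 13 against 6 over all gene-end regions. In the examples below the RefSeq transcript belongs to another gene than the one named. From each overlap the 30 bases with most CpGs were taken, written 5′ to 3′ on the strand of the RefSeq transcript, with each CpG in capitals. The following were chosen for display after their values were seen, to show dense and sparse regions of both directions.
Past the end of Irx3, chr8:91797940-91797969, minus strand: CGtttccCGcttggtggCGtgtgacCGCGc
In the 3' UTR of Ppfia4, chr1:134299184-134299213, plus strand: tgCGCGccccacCGcagCGttagtgcagct
In the 3' UTR of Zfp536, chr7:37320955-37320984, plus strand: CGCGtCGaccctggaaCGtttgaacctgCG
At the end of Casz1, chr4:148952484-148952513, minus strand: CGCGCGccCGcctCGccCGcagcctCGggc
Past the end of Spem2, chr11:69815329-69815358, minus strand: CGagcctgttttctagtttgtgggggccat
Past the end of Nupr1, chr7:126621785-126621814, plus strand: tgcctctgtcttcCGaatgctgggactaCG
Past the end of Mir6365, chr16:13468793-13468822, plus strand: ggtggtgatgtcataatgtaatgtcataCG
The region at the end of Casz1, which encodes a zinc finger transcription factor, held 81 CpGs over 816 bases and had a mean methylation level of 0.682 on side 1 and 0.497 on side 2. The Irx3 region, past a homeobox gene, held 29 CpGs with levels of 0.260 and 0.127. Both of these dense regions were therefore higher on side 1. The Ppfia4 region, with 63 CpGs, went from 0.153 on side 1 to 0.398 on side 2, and the Zfp536 region, with 14 CpGs, from 0.415 to 0.624. The sparse regions past Spem2 and Nupr1, with 5 CpGs each, had levels of 0.379 and 0.592, and of 0.716 and 0.903. The region past Mir6365 held 4 CpGs and was higher on side 1, at 0.926 against 0.694. CpG density in these examples did not settle the direction of the difference.

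Methylation was lower on side 1 at most of these differentially methylated gene-end regions. Of the 2793 regions, 1025 (36.7%, Wilson 95% interval 34.9% to 38.5%) had the higher level on side 1 and 1768 on side 2. Over all autosomal regions 44.9% were higher on side 1. The interval covers only the number of regions, which are not independent of each other and are not replicates of a genotype. The share was 34.8% in 3' UTRs and 40.2% downstream. Exon regions (38.0%) and intron regions (39.5%) were close to these, while promoter regions lay lower at 21.2% and distal intergenic regions higher at 57.2%.

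The size of the difference at gene ends was that of the table as a whole. Its median was 0.193 (quartiles 0.162 and 0.230) against 0.192 over all autosomal regions, and single regions ranged from 0.0015 to 0.618. A difference of at least 0.2 was seen at 1246 gene ends (44.6%), beside 43.5% of all autosomal regions, and 346 of these were higher on side 1 and 900 on side 2. Downstream regions reached it more often (51.7%) than 3' UTR regions (40.8%), exon regions (33.7%) or promoter regions (25.3%). Where side 1 was higher the median difference was 0.179, and where side 2 was higher it was 0.201.

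Gene-end regions were short and mostly methylated on both sides. The median region held 6 CpGs (quartiles 5 and 10, range 4 to 134) over 256 bases (quartiles 171 and 389), or 2.90 CpGs per 100 bases. The median level was 0.663 on side 1 and 0.730 on side 2. Levels above 0.8 were about as frequent on side 1 (30.2% of regions) as on side 2 (30.8%). Levels below 0.2 were found in 4.80% of regions on side 1 and in 0.823% on side 2, and over all autosomal regions in 7.21% and 1.87%.

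**Figure D1:**
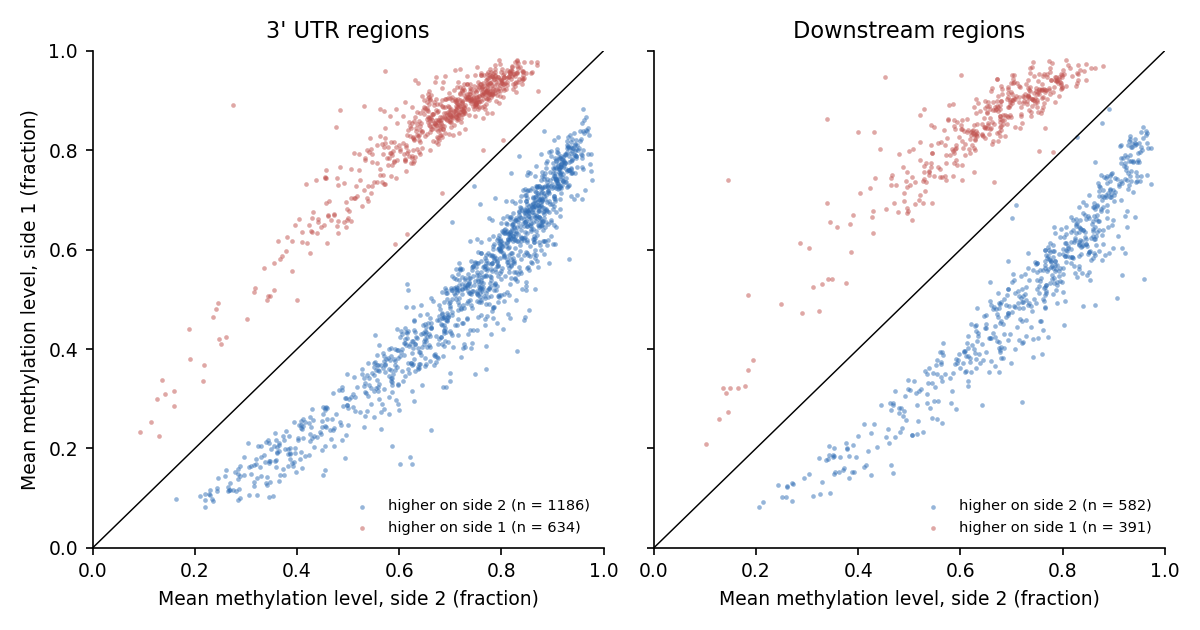
Mean methylation level (fraction) on side 1 against side 2 for each 3' UTR region (left) and downstream region (right). Each point is 1 region, red where side 1 was higher and blue where side 2 was higher, and the line marks equal levels. The point cloud below the line is larger in both panels, with 1186 of 1820 regions in 3' UTRs and 582 of 973 downstream.

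The direction followed the number of CpGs. Among gene-end regions of 4 CpGs, 47.5% of 611 were higher on side 1. The share was 39.5% of 1065 regions at 5 to 7 CpGs, 31.4% of 564 at 8 to 11, 27.4% of 368 at 12 to 19 and 19.5% of 185 at 20 or more. The same course was seen over all autosomal regions, from 56.9% to 18.4%, and over exon regions, from 48.5% to 14.5%. Gene ends lay below all autosomal regions by several percentage points in the groups of up to 11 CpGs, and came close to them from 12 CpGs on.

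CpG-rich gene ends had a higher median level than the CpG-rich regions of the whole table. With 20 or more CpGs, the median level was 0.362 on side 1 and 0.557 on side 2 at gene ends, against 0.181 and 0.308 over all autosomal regions of that size, and 0.304 and 0.479 over exon regions of that size. The median difference was 0.194 at these gene ends, 0.170 in such exon regions and 0.149 over all such regions. A difference of at least 0.2 was reached by 45.9% of them, against 22.4% of all autosomal regions and 30.9% of exon regions with 20 or more CpGs. These are shares of regions in 1 comparison, with no test. The groups also differed in density, with a median of 5.41 CpGs per 100 bases at gene ends, 6.74 in exon regions and 9.32 over all autosomal regions. Differences of at least 0.2 were rarer in denser regions, and the part of density here was not tested.

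**Figure D2:**
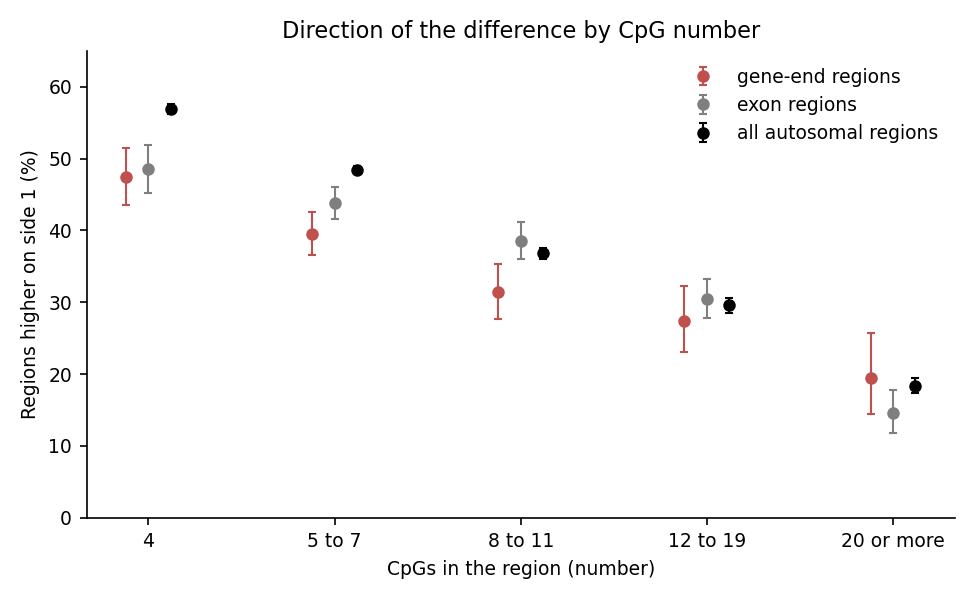
Percent of regions higher on side 1 by the number of CpGs in the region, for gene-end, exon and all autosomal regions. Points are shares and bars their Wilson 95% intervals over regions. All 3 kinds fall from regions with 4 CpGs (47.5% at gene ends) to those with 20 or more (19.5%).

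The mean level of a region, taken over both sides, also went with the direction. At gene ends the share higher on side 1 was 14.3% of 35 regions under 0.2, 11.1% of 244 at 0.2 to 0.4, 16.9% of 508 at 0.4 to 0.6, 37.3% of 1280 at 0.6 to 0.8 and 59.2% of 726 from 0.8 on. Over all autosomal regions the shares in the same groups were 15.6%, 13.9%, 20.1%, 48.0% and 69.2%. Within each group of levels, gene ends were thus higher on side 1 less often than, or about as often as, all regions. CpG density, as CpGs per 100 bases, went with the direction only slightly, from 39.5% below 2 to 34.7% from 6 on. It went more with the size, since a difference of at least 0.2 was seen in 63.8% of the sparsest gene ends and 17.4% of the densest.

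The gene listed beside a region in the table is the one whose start is nearest, which need not be the gene whose end it is. A region was tied to the listed gene when it overlapped the listed transcript with its midpoint in the last 5000 bases (3' UTR) or began within 3000 bases past its end (downstream). This held for 1434 regions (51.3%) of 1291 genes, of which 1331 regions belonged to protein-coding genes, 72 to long noncoding RNA genes and 16 to microRNA genes. Of the other 1359 regions, 783 lay at the end of a RefSeq gene, which in 66 cases was the listed gene itself by its RefSeq coordinates and in 717 only another gene. The share higher on side 1 was 36.6% for tied regions and 36.8% for the others. Gene names below refer to tied regions unless stated.

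The direction varied between positions along the gene end without a steady course. The share higher on side 1 was 33.5% of 400 regions whose midpoint lay in the last 1000 bases of the gene, 41.5% of 236 in the first 1000 bases past it, 33.2% of 199 in the next 1000 and 45.4% of 227 farther out. Farther inside the gene it was 32.9% of 219 regions at 1000 to 2000 bases before the end, 29.6% of 81 at 2000 to 3000 and 38.9% of 72 at 3000 to 5000. The Wilson intervals of neighbouring groups overlapped. Those of the last 1000 bases (29.1% to 38.3%) and of the regions more than 2000 bases past the end (39.0% to 51.9%) did not. That pair was picked from all pairs of groups, and regions are not replicates, so it is no test of position. The farther group also holds regions of chemosensory receptor genes, a family mostly higher on side 1 (34 of 37 regions).

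Chromosome 14, which carries Gulo, was the exception among the autosomes. There 71 of 120 gene-end regions (59.2%) were higher on side 1. On the other 18 autosomes the share ran from 24.8% on chromosome 17 to 45.5% on chromosome 9, and all together it was 35.7% of 2673 regions. The excess lay within 20 Mb of Gulo, a distance chosen after the values were seen: 56 of 77 gene ends (72.7%) were higher on side 1 there, against 15 of 43 (34.9%) on the rest of the chromosome. All autosomal regions in that window, of every annotation, were also mostly higher on side 1 (64.97% of 2344).

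The largest side 1 differences were in the same window. Of 32 gene ends higher on side 1 by at least 0.3, 16 were within 20 Mb of Gulo, and so were all 6 with a difference of at least 0.4. Toward side 2, 90 gene ends differed by at least 0.3 and 9 by at least 0.4, and those 9 were all on other autosomes. Mutant lines often carry chromosome segments of the strain in which the mutation was made, and the labels give neither that strain nor the number of backcrosses. Sequence variants next to Gulo and the effect of its loss on methylation cannot be told apart in this design.

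**Figure D3:**
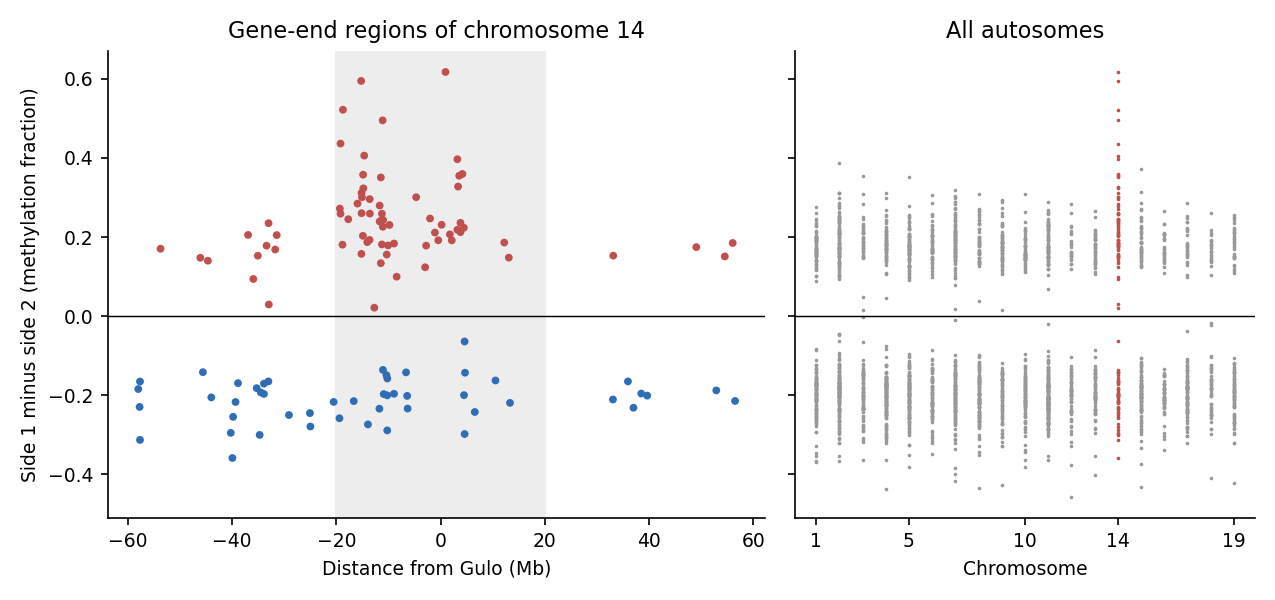
Left: difference in methylation level (side 1 minus side 2, fraction) of each chromosome 14 gene-end region against its distance from Gulo in Mb, red where side 1 was higher, with the 20 Mb window shaded. Right: the differences of all gene-end regions by autosome, chromosome 14 in red. All 16 chromosome 14 regions above 0.3 lie in the shaded window.

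Pnma2, which encodes a paraneoplastic Ma antigen, had the largest difference of all. Its region (mm10 chr14:66918247-66918864, 6 CpGs, centred 1505.5 bases before the gene end) had a level of 0.892 on side 1 and 0.274 on side 2. Downstream of Wdhd1, which encodes a replication fork protein, 12 CpGs had levels of 0.862 and 0.340. Past Homez, where the region also lies over Rnf212b, the levels were 0.948 and 0.453, and past Cdkn3, which encodes a phosphatase acting on cyclin-dependent kinases, and at the end of its neighbour Cnih1, 0.837 and 0.4005. All of these genes are on chromosome 14.

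The ranking here covers tied 3' UTR regions with at least 5 CpGs, with gene models named Gm or Rik left out. Outside chromosome 14 the leading ones toward side 1 were smaller in difference. Mrgpra6, a Mas-related receptor gene that RefSeq classes as a transcribed pseudogene, led them with 0.740 on side 1 and 0.437 on side 2 on chromosome 7. Ppp4r2, a regulatory subunit of protein phosphatase 4, had 0.869 on side 1 and 0.582 on side 2 over 5 CpGs on chromosome 6. Dedd2, a death effector domain gene, had 0.844 and 0.572 over 23 CpGs on chromosome 7. Npr3, which encodes the clearance receptor of natriuretic peptides, had 0.938 and 0.670. Rasd2 had 0.909 and 0.644, and Emc10, a subunit of the ER membrane protein complex, 0.886 and 0.625. Apart from Mrgpra6, side 1 was at 0.844 or more in each of them and side 2 was intermediate.

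Toward side 2 the leading tied gene ends with at least 5 CpGs were spread over many chromosomes. The 3' UTR of Orc3, a subunit of the origin recognition complex, had 0.183 on side 1 and 0.621 on side 2 over 6 CpGs (chr4:34572381-34572479). That of Nod2, an intracellular sensor of bacterial cell wall fragments, had 0.396 and 0.831 over 24 CpGs (chr8:88664952-88665573). Flrt1, where the region also overlaps Macrod1, had 0.238 and 0.661. Here side 1 was low to intermediate and side 2 intermediate to high.

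Further genes with a large side 2 excess in the 3' UTR were Zfp444 (0.459 and 0.843 over 24 CpGs), Klhdc7a (0.323 and 0.687) and Lgi2 (0.429 and 0.780). Chtf8, which takes part in sister chromatid cohesion and shares this end with Derpc, had 0.581 and 0.932. Glis2, a zinc finger transcription factor whose loss causes nephronophthisis, a cystic kidney disease, had 0.401 and 0.740 over 10 CpGs spread over 1207 bases. Downstream regions gave the same picture at Fut4, a fucosyltransferase gene, with 0.294 and 0.720 over 19 CpGs. Past Ptp4a3, a tyrosine phosphatase gene, the levels were 0.489 and 0.864, and past Nenf 0.448 and 0.803. The region listed as past Lect2, with 0.503 and 0.907, lies inside Lect2 and at the end of Fbxl21 by the RefSeq coordinates.

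The 4 tied gene ends with most CpGs were all higher on side 2. The 3' region of Hspa1b, which encodes an inducible HSP70 chaperone, held 133 CpGs with levels of 0.270 and 0.450 (chr17:34956936-34958448). Hspa1b has a near-identical copy, Hspa1a, and reads from the copies may not be separable. Sema6c, a semaphorin gene, held 124 CpGs with 0.263 and 0.550. Mapk15, an atypical MAP kinase gene, held 120 with 0.221 and 0.430, and Gprin1 113 with 0.131 and 0.268. The region with the most CpGs of all, 134, was listed beside Dctpp1 but lies over the end of the RefSeq gene Zfp771 (chr7:127253645-127254633), with 0.102 and 0.344. Another untied region, listed beside Gipc3, lay at the end of Hmg20b and held 69 CpGs with 0.204 and 0.585.

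Several regions at 1 gene end usually went the same way. Of 127 genes with at least 2 regions, 104 had all of them in 1 direction, 28 toward side 1 and 76 toward side 2, and 23 had both. Btg1, an antiproliferative gene, had 3 regions in its 3' end with 0.246, 0.147 and 0.284 on side 1 and 0.499, 0.374 and 0.450 on side 2. Its relative Tob2 had 3 regions at 0.513 to 0.590 on side 1 and 0.767 to 0.883 on side 2. Both genes encode proteins that bind the CCR4-NOT deadenylase, which shortens poly(A) tails. Aebp2, a cofactor of the Polycomb complex PRC2, had 3 regions the other way, at 0.911 to 0.976 on side 1 and 0.771 to 0.833 on side 2. Tbc1d30 had both directions within its end: 3 regions from 1700.5 bases before the end to 236.5 bases past it were higher on side 1, and a region 3243.5 bases before it was lower, at 0.516 against 0.734. Nfkb1, a subunit of NF-kB, showed how small a listed difference can be, with 0.827 and 0.828 at 1 of its 3 regions and 0.602 and 0.816 at another.

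Among gene families, chemosensory receptor genes went toward side 1. These are the olfactory and vomeronasal receptors, which kidney cells mostly do not transcribe and which sit in clusters in CpG-poor DNA. Of 37 regions at the ends of 35 such genes, 34 were higher on side 1, against 40.2% of downstream regions overall; 36 of the 37 were downstream regions, with a median of 5 CpGs. The median level was 0.861 on side 1 and 0.661 on side 2. Off chromosome 14, 26 of 28 regions on 11 chromosomes were higher on side 1. The family's largest difference was past Olfr749 on chromosome 14 (0.740 and 0.145), and on chromosome 2 Olfr1097 had 0.890 and 0.578 and Olfr1110 0.926 and 0.661. The exceptions were Olfr221, Olfr90 and Vmn1r65. Reads from such similar gene copies may not map uniquely, and mapping filters are not given in the sources used here.

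Solute carrier genes, which encode membrane transporters and include most of the transporters of the renal tubule, went the other way. Of 31 regions at the ends of 27 of them, 28 were higher on side 2, against 63.4% of all tied regions, with median levels of 0.611 and 0.8002. Slc23a1 encodes the transporter that takes up ascorbate across the proximal tubule and gut epithelium. It was the only gene of the ascorbate list (24 genes) with a tied region. That is 4.17% of the list, close to the 4.41% of all genes in the RNA tables. Its 3' UTR held 7 CpGs with 0.530 on side 1 and 0.817 on side 2 (chr18:35614624-35615105), and the same bases overlap Paip2. Slc43a2, an amino acid transporter, had 0.495 and 0.793, Slc27a3, a fatty acid transport protein, 0.577 and 0.869, and Slc26a1, a sulfate and oxalate transporter whose region also overlaps Idua, 0.464 and 0.755. Slc38a2, Slc25a25, Slc25a51 and Slc10a5 had 2 regions each, and all 8 were higher on side 2. The exceptions toward side 1 were Slc37a3, Slc36a4 and Slc1a3. Neither family count has a test, and both families were chosen with the values known.

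**Figure D4:**
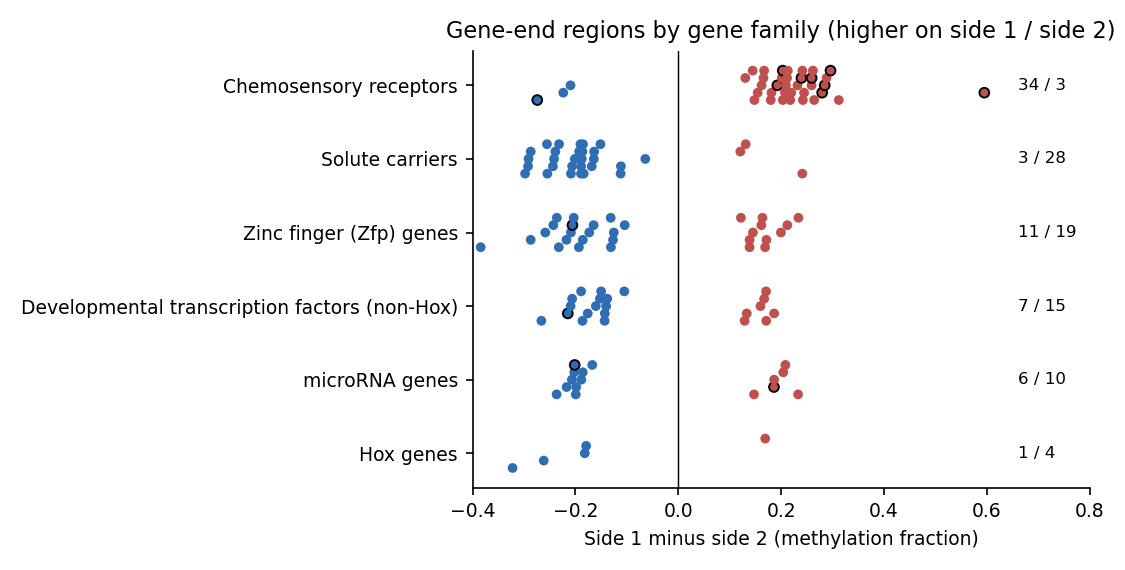
Difference in methylation level (side 1 minus side 2, fraction) of each gene-end region, by gene family. Red points were higher on side 1 and blue points on side 2, points with a black edge are on chromosome 14, and the numbers at the right count regions in each direction. Chemosensory receptors lie to the right (34 of 37) and solute carriers to the left (28 of 31).

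Developmental transcription factor genes had low to intermediate levels on both sides. These genes sit in long CpG-rich domains that Polycomb complexes hold silent outside their lineage. Of 89 genes on the list (Hox genes apart), 20 (22.5%) had a gene-end region, against 4.41% of all genes in the RNA tables. Those tables also hold noncoding genes and gene models, and no share over protein-coding genes alone was computed. The 20 genes had 22 regions, of which 15 were higher on side 2, against 63.4% of all tied regions. The median level was 0.267 on side 1 and 0.366 on side 2, against 0.650 and 0.723 over all tied regions. Sox9, a regulator of tubular repair, had 48 CpGs at 0.224 and 0.434. Osr2 had 41 CpGs at 0.330 and 0.597, Zic2 33 CpGs at 0.106 and 0.321, and Foxc1 17 CpGs at 0.362 and 0.569. Six2, which marks nephron progenitors, had 0.278 and 0.464. Otx1, Irx3, Dlx5, Tfap2b, Tbx15 and Pax9 were higher on side 1, as was 1 of the 2 regions of Meis2.

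Hox genes, which set position along the body axis, had 5 regions, of which 4 were higher on side 2. Hoxd13 had 0.278 and 0.6004 over 4 CpGs, Hoxb7 0.276 and 0.538, Hoxd9 0.220 and 0.402 over 43 CpGs, and Hoxc6 0.538 and 0.718. The antisense gene Hoxa11os was higher on side 1, at 0.648 and 0.479. Among zinc finger genes of the Zfp series 19 of 30 regions were higher on side 2, close to the share of all gene ends. The imprinted genes were divided: Cdkn1c, a cell cycle inhibitor, and Ascl2 were higher on side 1 (0.508 and 0.344, 0.743 and 0.528), and Dlk1 and Phlda2 on side 2 (0.434 and 0.631, 0.117 and 0.230).

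On the list of DNA methylation enzymes and readers 3 of 18 genes (16.7%) had a tied region, against 4.41% of all genes in the RNA tables. That background is not limited to protein-coding genes. Other families lay on both sides of it, with solute carriers at 7.28%, Zfp genes at 6.40% and ribosomal protein genes at 3.70%. Uhrf2, a reader of hydroxymethylated DNA, had 0.476 and 0.741 past its end, which is also the end of Gldc, and Zbtb4, which binds methylated DNA, 0.514 and 0.758 in its 3' UTR. Dnmt3a, a de novo methyltransferase, had 0.838 and 0.676. Among Jumonji demethylases, which like the TET enzymes use iron and 2-oxoglutarate, Kdm2b had 0.405 and 0.655, and Jmjd6 had a 3' UTR region at 0.511 and 0.753 and a downstream region at 0.947 and 0.799. Of 50 kidney segment genes 3 (6.00%) had a region, all higher on side 2: Podxl (podocytes; 0.499 and 0.761), Egf (thick ascending limb; 0.766 and 0.925) and Aqp1 (proximal tubule water channel; 0.838 and 0.960). Of 28 tubular injury genes only Plin2 did (0.742 and 0.910). No tied region was found for the lists of m6A enzymes and readers (19 genes), collagens and matrix (39) or fatty acid oxidation (31).

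MicroRNA genes had 16 regions at 15 genes, all annotated as downstream, and 10 were higher on side 2, against 63.4% of all tied regions. The mature sequences, from RefSeq (GRCm38.p6), identify the products of 5 of these genes, which were picked after their values were seen. Their seeds (bases 2 to 8), which pair with target 3' UTRs, are in capitals. The methylation regions lie past the hairpins and do not contain these bases.
miR-21a-5p, from Mir21a on chromosome 11: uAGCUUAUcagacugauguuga
miR-760-3p, from Mir760 on chromosome 3: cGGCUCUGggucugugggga
miR-205-5p, from Mir205 on chromosome 1: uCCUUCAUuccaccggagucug
miR-184-3p, from Mir184 on chromosome 9: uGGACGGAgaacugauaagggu
miR-675-5p, from Mir675 on chromosome 7: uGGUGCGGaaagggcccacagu
No seed was shared among these 5. Mir21a, whose product rises in many injured and fibrotic tissues, had 0.383 on side 1 and 0.620 on side 2 over 15 CpGs (chr11:86581618-86582247), at a position that is also the end of Vmp1. Mir760 had 0.616 and 0.823. The other 3 were higher on side 1: Mir205, an epithelial microRNA gene whose region lies over its host gene Mir205hg, had 0.845 and 0.659, Mir184 0.949 and 0.745, and Mir675, which is processed from the imprinted transcript H19, 0.765 and 0.557. Mir5135 had 2 regions, both higher on side 2, at 0.153 and 0.355 and at 0.673 and 0.841.

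Methylation at the promoter could be set beside the gene end for 444 genes that also had a promoter region in the table. In 245 of them both were higher on side 2 and in 27 both on side 1. In 98 the end was higher on side 1 and the promoter on side 2, in 38 the reverse, and 36 had regions of mixed direction. Leaving those out, the promoter was higher on side 1 in 21.6% of genes whose end was higher on side 1, and in 13.4% of genes whose end was higher on side 2. Promoter regions overall were higher on side 1 in 21.2%.

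RNA of the same genes was read from the 4 single-cell RNA-seq libraries of the series, 2 wild type and 2 Gulo-/-, as UMI counts (unique molecules) summed over all barcodes of a library. After filtering, the libraries held 1595 and 7541 barcodes with 8609790 and 47588955 UMIs in wild type, and 1877 and 13962 barcodes with 7552108 and 79527927 UMIs in Gulo-/- (replicates 1 and 2). Before filtering, 986 barcodes were shared between the wild type libraries, against 9 to 282 between the other pairs of libraries, and they were removed from replicate 2. Gulo itself had 0 and 1 UMIs in wild type and 0 and 2 in Gulo-/-, so it gives no check of the labels in kidney. Markers of several cell types differed between the genotypes, while those of endothelial cells, neutrophils, podocytes, and B and plasma cells overlapped. The summed level of 8 proximal tubule markers was 4456 and 20719 CPM (UMIs of a gene scaled to a common library total) in wild type and 3910 and 841 in Gulo-/-. That of 4 collecting duct principal cell markers was 229 and 422 against 3493 and 5172, and that of 3 thick ascending limb markers 336 and 713 against 1468 and 6718. Their part in the RNA values below was not tested, and in such sums fewer cells of a type and less RNA per cell cannot be told apart.

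Genes with a gene-end region were expressed more often than genes in general, and more so where side 2 was higher. Of the 1291 genes, 1236 were matched to the RNA tables, and 704 of these (57.0%) reached at least 1 CPM in all 4 libraries, against 39.4% of all 27998 genes. The share was 64.6% of 773 genes whose regions were all higher on side 2 and 43.0% of 440 genes whose regions were all higher on side 1. Pooled over cell types, this compares genes, which are not replicates, and it carries no test. The sets also differ in kind. Of the 1434 tied regions 1331 belonged to protein-coding genes, and no share over protein-coding genes alone was computed. The side 1 genes include most of the chemosensory receptor genes (34 of 37 regions), which kidney cells mostly do not transcribe.

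No gene passed the test between genotypes at an adjusted p under 0.05 by edgeR's quasi-likelihood test with Benjamini-Hochberg adjustment over 14118 genes (0.0% called), where 4454 had an unadjusted p under 0.05. Of 874 tested genes with a gene-end region 0 were called, and 300 (34.3%) had an unadjusted p under 0.05, against 31.5% of all genes. The lowest adjusted p was 0.0749. The count depended on the method. DESeq2 called 2531 of 14351 genes (17.6%), and 196 of 883 genes with a gene-end region (22.2%). The difference between these shares was not tested. With 2 libraries per genotype, edgeR recovered 188 of 199 simulated 4-fold changes at a coefficient of variation of 0.2 between libraries, and 1 of 197 at 0.5. It made 12 false calls at 0.2 and 0 at 0.5. Every simulated gene varied alike, and the variation of the real libraries is not given here. The simulation therefore does not tell how many real changes were missed. Whether the libraries came from separate animals is not in the labels, and the spread behind each p-value may be technical.

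The scaling matters for the sign of small changes. Among 7528 genes with at least 5 CPM in every library, log2 differences from plain CPM were larger by a median of 0.50 than those from edgeR's TMM scaling. For that reason 4 of the 52 named genes tested (Dedd2, Hoxb7, Jmjd6 and Orc3) were higher in Gulo-/- by CPM and lower by the fit.

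Aqp1 RNA stood at 119 and 103 CPM in wild type and at 522 and 592 CPM in Gulo-/-. The groups did not overlap, and the fitted log2 fold change was 1.81 (SE 0.25), with an edgeR adjusted p of 0.0749 that missed the threshold. The edgeR adjusted p passed it with the replicate number as a block (0.0385), without Gulo-/- replicate 1 (0.0368) and without a filter on low counts (0.000793), as did that of DESeq2 (2.04e-06), and it ran up to 0.227 over the other alternatives. Btg1 RNA was 88.5 and 72.5 CPM against 238 and 290, and Klhdc7a RNA 10.7 and 12.7 against 30.1 and 31.2. Lack of overlap in CPM was common among named genes. Of 45 with a mean of at least 1 CPM, 35 showed it, in either direction. The same share over all genes was not computed, so the count is no result about these genes. It was made in plain CPM, whose log2 differences lay a median of 0.50 above those of the fit, and may depend on the scaling. Aqp1, Btg1 and Klhdc7a all had gene-end regions higher on side 2. In these 3 genes every Gulo-/- library lay above both wild type libraries without passing the main test. Btg1 passed it with DESeq2 (adjusted p 0.00482) and in edgeR without a filter on low counts (0.0122), and its edgeR adjusted p was 0.0555 to 0.244 in the other alternatives. Klhdc7a passed it in none of them.

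Some other side 2 genes ran the opposite way or overlapped. Zfp444 RNA was 29.6 and 46.8 CPM in wild type and 24.9 and 20.5 in Gulo-/-, and Osr2 RNA 26.0 and 24.0 against 13.9 and 12.8. Slc26a1 RNA was 32.4 and 43.9 CPM against 30.9 and 8.79. Slc23a1 RNA was 24.5 and 19.6 CPM in wild type and 29.7 and 9.59 in Gulo-/-, so the groups overlapped. Orc3 led the tied 3' UTR regions with at least 5 CpGs toward side 2. Its RNA was 8.94 and 11.6 CPM against 12.05 and 10.5, also overlapping. Dlk1, on chromosome 12, was instead higher in Gulo-/-, with 0 UMIs in each wild type library against 179 and 176. In CPM its Gulo-/- libraries differed widely, at 23.7 (replicate 1) and 2.21 (replicate 2). Gene ends higher on side 2 thus went with RNA values in either direction.

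Among side 1 genes, Emc10 RNA was 60.05 and 57.6 CPM in wild type and 90.7 and 140 in Gulo-/-, and Ppp4r2 RNA 20.3 and 23.2 against 40.9 and 43.3. Dedd2 RNA overlapped, at 13.4 and 12.8 against 11.5 and 17.5. On chromosome 14, Wdhd1 was little transcribed, at 0.232 and 0.420 CPM against 1.19 and 1.16. None of these genes passed the test.

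**Figure D5:**
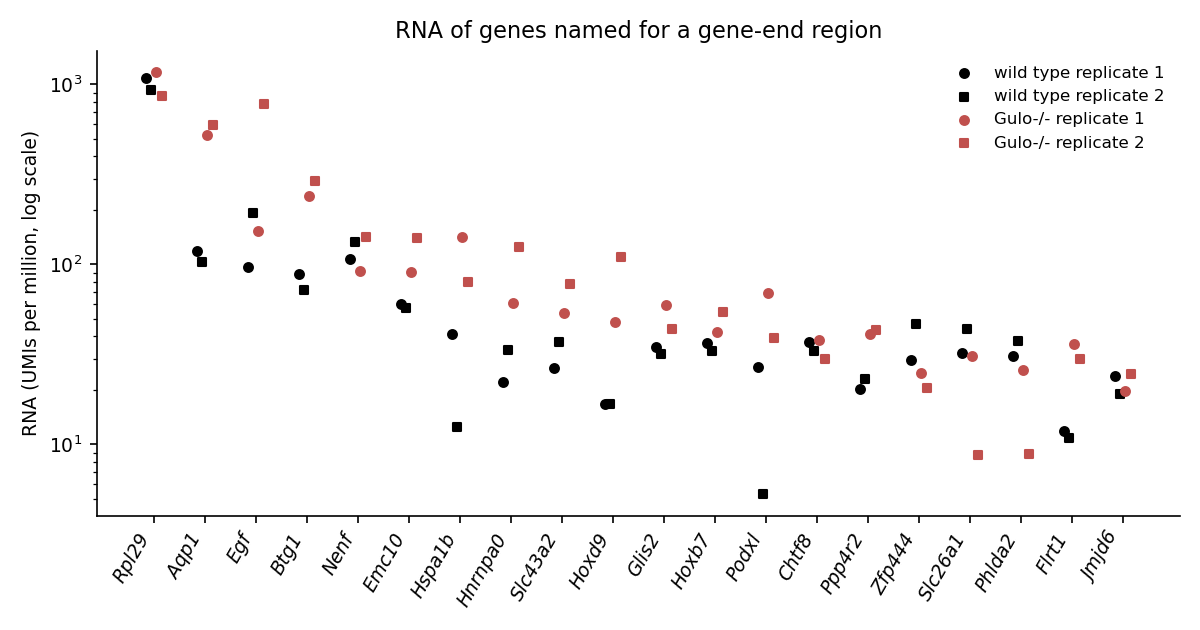
RNA level in CPM (log scale) of 20 genes chosen for a gene-end region, in order of their mean RNA, all with at least 5 CPM in every library. Black points are the wild type libraries and red points the Gulo-/- libraries, circles replicate 1 and squares replicate 2. Aqp1 and Btg1 show both red points above both black points, and Zfp444 the reverse. Among 45 named genes with a mean of at least 1 CPM, 35 had no overlap in CPM between genotypes, in either direction. The share over all genes was not computed.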

How the data were processed

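Methylation levels are fractions made by the authors: their deposited table gives the mean per side for each differentially methylated region (per the file headers). For the caller, coverage and filters nothing is given in the sources used here. The submitters' processing notes name mm10, Seurat 2.3.4 and MACS2 2.1.2 without roles. Regions were counted with pandas 2.3.3, scipy 1.17.1 and numpy 2.4.6, beside all autosomal regions. The deposited single-cell matrices hold raw UMI counts (counting tool not given). Barcodes with at least 500 UMIs, 200 genes and at most 50% mitochondrial UMIs were summed per library, with no doublet removal. Genotypes were compared with edgeR 4.0.16 in R 4.3.3 (TMM, filterByExpr, robust quasi-likelihood), checked on simulated counts, with DESeq2 1.42.0 as an alternative. The m6A and bulk RNA samples were not analysed here.

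Named regions were tied regions with at least 5 CpGs: the largest differences per direction (8 in 3' UTRs, 5 downstream), those with most CpGs, genes with most regions, and up to 4 per list. Further members of lists, untied regions, the printed sequences, the 5000-base window, the 20 Mb window and the differences of 0.3 and 0.4 were chosen after their values were seen. The members and lists were chosen with earlier results of these data known. Xist and Ddx3y counts marked wild type replicate 1 and Gulo-/- replicate 2 as female and the others as male. Some genes that this selection named are not reported here.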

Additional observations from a re-analysis of the deposited data

How the results depend on the processing

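The share of gene ends higher on side 1 (36.7%) was 33.7% with at least 5 CpGs, 27.1% with at least 10, 34.8% in 3' UTRs alone and 40.2% downstream alone. All autosomal regions went from 44.9% to 40.5% with at least 5 CpGs and to 27.6% with at least 10, within 1 percentage point of gene ends. The share at gene ends was 35.7% without chromosome 14. The count with a difference of at least 0.2 (1246) was 337 with at least 10 CpGs, 743 in 3' UTRs, 503 downstream and 671 for tied regions, and became 2745 with a difference of at least 0.1 and 122 with 0.3. Those subsets hold fewer regions.

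The count of genes called by RNA (0) rose to 2531 (17.6%) with DESeq2 and 2399 (12.3%) without a filter on low counts. Among genes with a gene-end region it rose to 196 (22.2%) and 174 (16.1%). Leaving out 1 library at a time gave 0 to 841 genes, and 0 to 73 with a gene-end region. The replicate numbers in the titles do not pair the samples by any label, and deviations of same-numbered libraries had a correlation of 0.14. With that number as a replicate block 1236 genes were called (8.75%), and 95 of the 874 with a gene-end region (10.9%). A block for sex, DESeq2 size factors and keeping shared barcodes each gave 0. A minimum of 1000 UMIs removed no barcode, since the lowest total was 1122. The cause of these shifts was not tested. Of 52 named genes, 11 changed the sign of their log2 fold change when 1 library was left out. Over those fits the values ran from -2.13 to 0.071 for Cdkn3, -0.34 to 1.79 for Egf, -0.23 to 0.42 for Glis2, -0.15 to 0.011 for Hoxb7, -0.12 to 0.34 for Kdm2b, -0.55 to 0.93 for Nod2, -0.67 to 0.84 for Npr3, -1.83 to 0.0021 for Slc23a1, -0.047 to 1.21 for Slc27a3, -0.50 to 0.11 for Tbc1d30 and -0.27 to 1.24 for Zfp276. Where 1 library was left in a genotype, it was assumed to vary like the other genotype's pair. The depth behind methylation levels is unknown.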
